A study of Homo sapiens with 8 samples.

Results

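The genes described here are cell adhesion genes and markers used to place a carcinoma cell between an epithelial and a mesenchymal state. They were chosen by name and number 10 of the 18132 genes with a probe set of 1 symbol: the cadherins CDH1, CDH2 and CDH3, the adhesion molecules CADM1 and EPCAM, the splicing regulator ESRP1, and VIM, ZEB1, SNAI2 and LUM. RNA levels were read on 8 arrays from 3 human lung adenocarcinoma lines carrying the EML4-ALK fusion. Parental H3122 cells and their ceritinib-resistant derivative H3122-LR2 were measured untreated, after crizotinib and after ceritinib, and the resistant derivative H3122-LR3 untreated and after ceritinib. Each agent, an inhibitor of the ALK kinase, was given at 1000 nM for 6 h. Each line and agent had 1 array, so no condition was replicated.

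Cadherins hold neighbouring cells together through calcium-dependent contacts that are anchored to actin by catenins. Epithelial cells use E-cadherin (CDH1), and in an epithelial-mesenchymal transition the transcription factors of the ZEB, SNAI and TWIST families repress it while N-cadherin (CDH2) and vimentin (VIM) rise. ESRP1 keeps transcripts in their epithelial splice forms and is lost in that transition. EPCAM is an epithelial surface glycoprotein, P-cadherin (CDH3) is a classical cadherin of basal and glandular epithelium, and CADM1 is an immunoglobulin-family adhesion molecule often silenced in carcinomas, lung carcinoma among them. Lumican (LUM) is a small leucine-rich proteoglycan that binds collagen fibrils and is made mainly by fibroblasts.

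Values are log2 signals of the gene's brightest probe set, and differences are log2 differences, so 1 unit is a doubling. The median of the whole table, 5.36, served as a floor, and a level under it was taken as dim. A gene was tested when it exceeded the floor on at least 2 arrays, which 10527 genes did. Calls required an adjusted p (Benjamini-Hochberg, limma) under 0.05. Values after ± are standard errors of the fit over the 8 arrays. Because no condition was repeated and the labels name no separate cultures, these p-values reflect only how far arrays scatter around line and agent effects, which may be technical. All 10 of 10 lung adenocarcinoma identity genes (keratins, NKX2-1, NAPSA, SFTPB, EPCAM, MUC1 and ALK) exceeded the floor, with a log2 summed level between 15.27 and 15.58. Keratins, among them KRT8 (13.30 to 13.73) and KRT18 (13.58 to 13.98), made up most of that sum. NKX2-1 read 10.38 to 11.25, while SFTPB was only just above the floor (5.40 to 5.58). The leukocyte marker TYROBP (6.38 to 6.59) and the endothelial marker CDH5 (6.11 to 6.43) also exceeded it on all 8 arrays. Passing the floor therefore does not by itself establish cell identity. Array medians lay between 5.31 and 5.46.

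All 3 lines kept high E-cadherin and EPCAM, and none showed vimentin, ZEB1 or SNAI2 signal above the floor. Within this epithelial setting, both resistant lines had far less CADM1 and less CDH3 and CDH1 than parental cells. LUM exceeded the floor in LR3 alone, and ESRP1 was higher in LR2. Against parental cells 5 of the 7 tested members were called in LR2, where 22.5% of all tested genes were. Of these 5, 2 were higher and 3 lower, beside 12.8% and 9.68% of all genes. In LR3 4 of the 7 were called (21.6% of all genes), 1 higher and 3 lower (9.53% and 12.1%). Of the 7 tested members, LUM passed the floor only on the 2 LR3 arrays and CDH2 only on 2 parental arrays, and all LUM values compared in LR2 were dim, so these counts describe the genes and support nothing further.

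**Figure D1:**
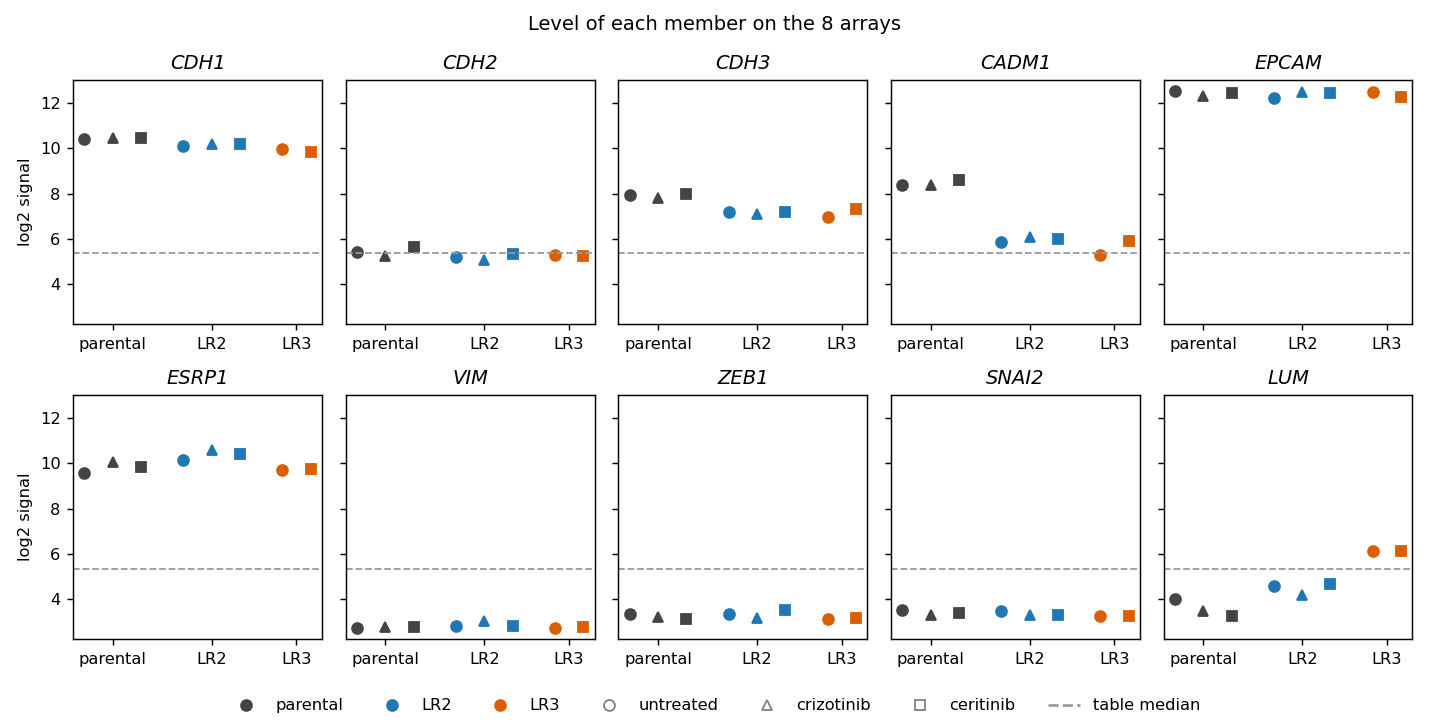
Level of each of the 10 members on the 8 arrays (log2 signal, vertical axis), by line (colour) and agent (symbol), 1 point per array, with the table median of 5.36 dashed. CADM1 drops from 8.36 or more in parental cells to 6.09 or less in both resistant lines, LUM exceeds the dashed line only in LR3, and VIM, ZEB1 and SNAI2 stay under it on every array.

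CADM1 had the largest fitted differences from parental cells of the members, those of LUM being bounded by its dim parental values. It read 8.37 in untreated, 8.36 in crizotinib-treated and 8.62 in ceritinib-treated parental cells. LR2 cells gave 5.88, 6.09 and 6.02 under the same agents, and LR3 cells 5.29 untreated and 5.89 with ceritinib. The parental arrays were thus more than 2 units above every resistant array, and untreated LR3 cells were the only ones under the floor. CADM1 fell by 2.45 ± 0.11 in LR2 (5.48-fold lower, lower in 3 of 3 matched pairs, adjusted p = 1.62e-05) and by 2.86 ± 0.12 in LR3 (7.26-fold lower, 2 of 2 pairs, adjusted p = 1.7e-05). Between the resistant lines CADM1 differed by -0.41 ± 0.12 (LR3 minus LR2, 95% interval -0.69 to -0.12), which was not called (adjusted p = 0.0533). It was called without the parental, the LR2 or the LR3 ceritinib array (adjusted p between 0.0373 and 0.0481), with an intensity trend (0.0432) and with robust eBayes (0.0493), and it was -0.20 without untreated LR3 cells and -0.23 with the mean of all probe sets, not called. LR3 was near the floor, where differences may be compressed.

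The array has 6 probe sets for CADM1, and all but the dimmest read higher in parental cells than in either resistant line. The next brightest, 11728806_a_at, ran from 7.94 to 8.03 in parental cells, from 5.03 to 5.44 in LR2 and from 4.92 to 4.99 in LR3. Fitted as a row of its own, it differed by -2.70 ± 0.09 in LR2 and by -3.00 ± 0.11 in LR3, both called over the probe sets tested. Its LR3 values and its untreated LR2 value were dim. The fits of 11757557_s_at (-1.87 ± 0.11 and -2.34 ± 0.13) and 11741375_a_at (-1.51 ± 0.16 and -1.53 ± 0.19) also passed the threshold. Both exceeded the floor only in parental cells (6.34 to 6.51 and 5.39 to 5.50). In LR2 and LR3 they were dim (4.76 or less and 4.25 or less). They were tested only because the parental arrays are high, so their fits are a description. Between LR3 and LR2, 11757557_s_at alone of the 4 tested passed the threshold (-0.47 ± 0.13, adjusted p = 0.0428). All its LR2 and LR3 values were dim, so this is not read as a difference between the resistant lines. The fifth, 11754473_a_at, never reached the floor, yet it too was higher in parental cells (4.76 to 5.0) than in LR2 (2.52 to 2.90) and LR3 (2.82 to 2.87). The sixth, 11762680_s_at, lay between 2.90 and 3.42 on all arrays, and its groups overlapped.

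**Figure D2:**
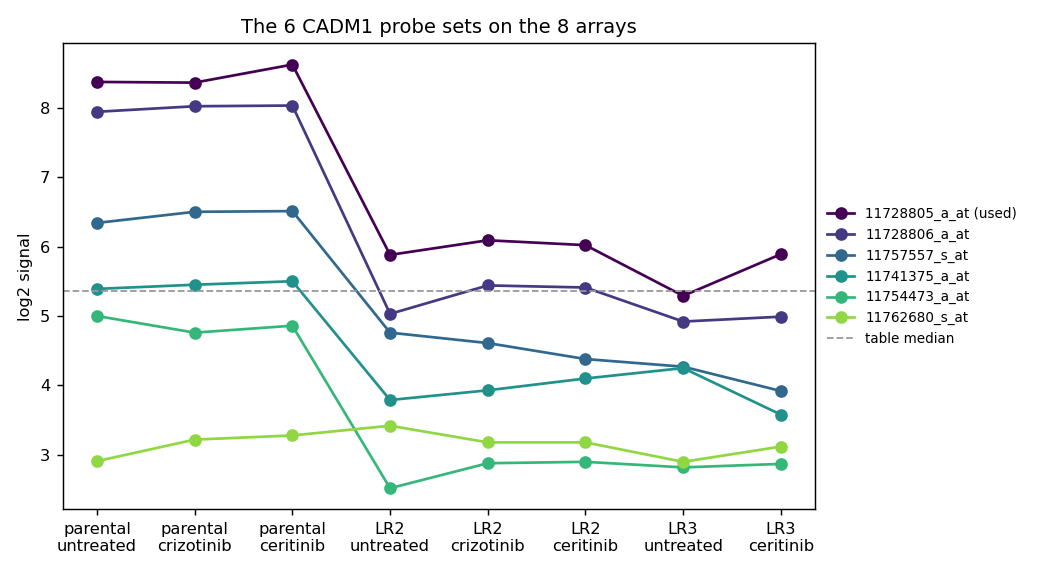
The 6 CADM1 probe sets (1 line each, joined only to guide the eye) on the 8 arrays, as log2 signal, with the table median dashed. In 5 of the 6, every parental value lies above every LR2 and LR3 value, and the dimmest set stays between 2.90 and 3.42.

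CDH3 read 7.95 untreated, 7.81 with crizotinib and 7.97 with ceritinib in parental cells. LR2 gave 7.17, 7.08 and 7.20, and LR3 gave 6.96 untreated and 7.31 with ceritinib. The parental values did not overlap those of either resistant line, while the LR3 pair spanned the LR2 values. CDH3 fell by 0.76 ± 0.08 in LR2 (1.69-fold lower, 3 of 3 pairs, adjusted p = 0.000913) and by 0.82 ± 0.10 in LR3 (1.76-fold lower, 2 of 2 pairs, adjusted p = 0.00155). Its other probe set, 11746389_a_at, fell by 0.69 ± 0.08 and 0.77 ± 0.10 and was called in both. LR3 minus LR2 was -0.06 ± 0.10, with a 95% interval from -0.29 to 0.17, so a difference of that size between the resistant lines was not detectable.

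CDH1 changed much less. Parental cells gave 10.40, 10.46 and 10.45 in the order untreated, crizotinib, ceritinib, LR2 cells 10.08, 10.17 and 10.17, and LR3 cells 9.96 untreated and 9.83 with ceritinib. The 3 lines did not overlap, and all values were high on the scale of the array. CDH1 fell by 0.30 ± 0.07 in LR2 (1.23-fold lower, 3 of 3 pairs, adjusted p = 0.0229) and by 0.53 ± 0.09 in LR3 (1.44-fold lower, 2 of 2 pairs, adjusted p = 0.005). LR3 minus LR2 was -0.23 ± 0.09 and was not called (adjusted p = 0.0968). The second CDH1 probe set, 11716905_a_at, ranged from 6.05 to 6.69 with overlapping groups and gave -0.15 ± 0.13 in LR2 and -0.30 ± 0.16 in LR3, neither called (adjusted p = 0.466 and 0.212). The LR2 call was lost when any 1 of the 6 parental and LR2 arrays was left out (adjusted p between 0.0504 and 0.111), and the LR3 call without the LR3 ceritinib array (adjusted p = 0.0699).

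CDH2, the cadherin that replaces CDH1 in mesenchymal cells, stayed at the floor. It read 5.41, 5.26 and 5.65 in parental cells, 5.21, 5.07 and 5.34 in LR2 (untreated, crizotinib, ceritinib), and 5.28 and 5.25 in LR3 (untreated, ceritinib). Only untreated and ceritinib-treated parental cells exceeded 5.36, and the groups overlapped. The differences were -0.23 ± 0.08 in LR2 (adjusted p = 0.0615) and -0.25 ± 0.09 in LR3 (adjusted p = 0.078), so no rise of CDH2 accompanied the lower CDH1. In LR2 the difference was called with quantile normalization (-0.25, adjusted p = 0.0483) and with each array centred on its median (-0.26, adjusted p = 0.0468). The second CDH2 probe set, 11726615_a_at, lay between 2.84 and 3.20.

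EPCAM was at 12.52, 12.28 and 12.44 in parental cells, 12.22, 12.47 and 12.42 in LR2, and 12.49 and 12.26 in LR3, in the same order of agents. The lines overlapped. The line differences were -0.04 ± 0.11 for LR2 (95% interval -0.29 to 0.20) and -0.05 ± 0.13 for LR3 (-0.34 to 0.24), neither called (adjusted p = 0.811 and 0.825). Over its 3 probe sets EPCAM ranged from 11.25 to 12.52, and none was called.

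ESRP1 set the resistant lines apart. Parental cells gave 9.56 untreated, 10.06 with crizotinib and 9.85 with ceritinib, LR2 cells 10.13, 10.60 and 10.40, and LR3 cells 9.72 untreated and 9.73 with ceritinib. Each LR2 array was above every array of the other lines, and LR3 lay within the parental range. ESRP1 rose by 0.55 ± 0.08 in LR2 (1.47-fold higher, 3 of 3 pairs, adjusted p = 0.00264). In LR3 it differed from parental cells by 0.02 ± 0.09 (95% interval -0.20 to 0.23, adjusted p = 0.92). The 3 matched LR2 pairs differed by 0.57, 0.54 and 0.55. The second probe set, 11723544_a_at, was called in LR2 (0.44 ± 0.08) and not in LR3 (0.07 ± 0.10).

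LUM was the only member whose signal passed the floor in a resistant line and not in parental cells. Parental cells read 4.03, 3.50 and 3.26, LR2 cells 4.60, 4.20 and 4.70 (untreated, crizotinib, ceritinib), and both LR3 arrays 6.12. The 3 lines did not overlap, and only LR3 exceeded the floor. Taking the dim arrays at the floor, LUM was at least 1.69-fold higher in LR3 than in parental cells (means 6.12 and 3.60 as measured, higher in 2 of 2 pairs). It was tested only because the LR3 arrays are high, so the fitted 2.42 ± 0.19 (adjusted p = 0.000207) is a description. In LR2 all 6 values compared were dim, and no fold is given. The fit there gave 0.90 ± 0.16 (adjusted p = 0.00648), which is not read as a rise. The array has 1 probe set for it, 11715796_s_at, whose suffix marks probes that may match more than 1 transcript. Of 16 fibroblast markers on the array, 3 ever exceeded the floor: LUM, S100A4 and, on 1 array, FBLN1. The defining genes stayed dim on all arrays, COL1A1 at 5.16 or less, COL1A2 at 3.92 or less, COL3A1 at 2.96 or less, DCN at 3.36 or less, PDGFRA at 3.76 or less and FAP at 2.66 or less. The summed level of the fibroblast markers was 10.65 to 10.81 in parental, 9.85 to 9.93 in LR2 and 10.47 to 10.56 in LR3 cells, and S100A4 made up most of it. The 14 markers other than S100A4 and LUM summed to 7.60 to 7.66 in parental, 7.55 to 7.68 in LR2 and 7.58 to 7.59 in LR3 cells. Their part in the LUM signal was not tested. The leukocyte gene PTPRC (3.05 or less) and the endothelial gene PECAM1 (4.85 or less) were dim. On at least 1 array 4 of 13 leukocyte markers (CD79A, CD68, TYROBP and LCP1, at 6.94 or less) and 5 of 12 endothelial markers (CDH5, VWF, KDR, TIE1 and ENG, at 6.52 or less) passed the floor. Of these KDR was called lower in LR2 (-0.23 ± 0.07, adjusted p = 0.0465, lost without any of the 8 arrays) and in LR3 (-0.44 ± 0.08, adjusted p = 0.00795, lost without either LR3 array, up to 0.0795). TYROBP, LCP1, CDH5, KDR and ENG exceeded the floor on all 8 arrays. TYROBP (6.38 to 6.59) and CDH5 (6.11 to 6.43) read about as high there as LUM did in LR3 (6.12). The summed level lay between 8.70 and 8.87 for leukocyte and between 8.64 and 8.82 for endothelial markers over all arrays.

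Between the resistant lines 2 of the 7 tested members were called, beside 19.6% of all genes. LUM was at least 1.69-fold higher in LR3 than in LR2 (2 of 2 pairs) with the dim LR2 arrays at the floor. The fitted 1.52 ± 0.19 (adjusted p = 0.00162) is again a description, and 7.29% of genes were called higher. ESRP1 was lower in LR3 by -0.54 ± 0.09 (1.45-fold, 2 of 2 pairs, adjusted p = 0.00615), where 12.3% were called lower. The ESRP1 call was lost without the LR3 ceritinib array (-0.40, adjusted p = 0.0824). It was also lost with only the agent-matched arrays of the 2 lines (-0.54, adjusted p = 0.0715). These 3 line comparisons share arrays and are not independent of each other.

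**Figure D3:**
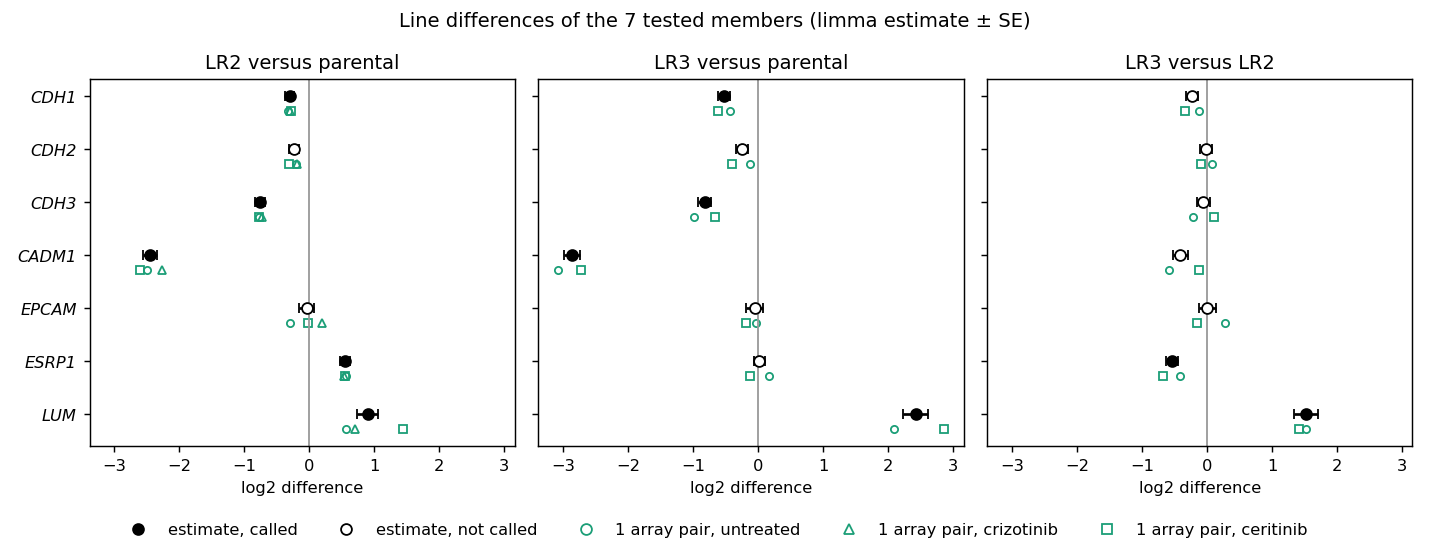
Line differences of the 7 tested members in log2 units: black circles are limma estimates with ± 1 standard error (filled where called), and open green symbols the single-array differences per agent. CADM1 lies beyond -2 in both resistant lines, the LUM estimates rest on dim parental and LR2 values, and ESRP1 departs from 0 in LR2 alone among the 2 comparisons with parental cells.

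The mesenchymal regulators and the intermediate filament marker were dim on every array. VIM read between 2.74 and 2.79 in parental, 2.84 and 3.06 in LR2, and 2.74 and 2.77 in LR3 cells, and both its probe sets stayed between 2.47 and 3.06. ZEB1, a repressor of CDH1, has 7 probe sets, all between 2.15 and 3.54. SNAI2, another such repressor, has 1 probe set, with 3.53, 3.33 and 3.40 in parental, 3.51, 3.32 and 3.31 in LR2 and 3.26 and 3.27 in LR3 cells. With no floor applied, none of the 3 was called in a line comparison (differences from -0.24 to 0.14). A dim signal bounds what the array could register and does not show that no transcript was present.

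Most other transcription factors of the transition were also dim on every array. Of 12 on the array, only TCF3 (E2A, a helix-loop-helix factor with roles beyond this transition) was bright enough to test. TCF3 rose by 0.38 ± 0.08 in LR2 and fell by 0.42 ± 0.09 in LR3 (adjusted p = 0.0123 and 0.0165). Without _x_at and _s_at probe sets the LR2 rise was 0.78. ZEB2 never exceeded 3.15, SNAI1 4.44 and TWIST1 4.67, and SNAI3, TWIST2, PRRX1, FOXC2, TCF4 and KLF8 also stayed under the floor. GSC passed it on 1 array (5.37, LR2 with ceritinib) and LEF1 on 1 (5.67, parental with ceritinib). The LR2 call of TCF3 was lost without the parental crizotinib, parental untreated, LR2 crizotinib or LR2 ceritinib array (adjusted p between 0.0542 and 0.0693), and the LR3 call without the parental or LR3 ceritinib array (0.0509 and 0.168). In LR3 it was also lost with the mean of all probe sets (-0.18, adjusted p = 0.154) and without _x_at and _s_at probe sets (-0.14, adjusted p = 0.52).

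Of the 30 mesenchymal marker genes on the array, only 8 were bright enough to test. In LR2 3 were called lower and 1 higher (9.68% and 12.8% of all tested genes), and in LR3 5 lower and none higher (12.1% and 9.53%), with a median difference of -0.09 and -0.32 against 0.02 and 0.01 over all tested genes. NT5E (CD73, an ecto-nucleotidase) fell by 0.99 ± 0.10 in LR2 and by 1.76 ± 0.11 in LR3 (adjusted p = 0.000503 and 9.69e-05). S100A4, a calcium-binding protein of motile cells, fell by 1.03 ± 0.07 in LR2 and by 0.29 ± 0.08 in LR3 (adjusted p = 8.3e-05 and 0.0338). CD44, a hyaluronan receptor, rose by 0.66 ± 0.07 in LR2 and fell by 0.55 ± 0.08 in LR3 (adjusted p = 0.000695 and 0.00356). TPM1, an actin-binding tropomyosin, fell by 0.50 ± 0.10 in LR3. That difference was -0.32 without _x_at and _s_at probe sets (adjusted p = 0.117) and -0.25 with the mean of all probe sets. FN1 (fibronectin), named here only to complete the count, gave fitted differences of -0.40 ± 0.08 in LR2 and -0.34 ± 0.10 in LR3. FN1 passed the floor only on the 3 parental arrays (5.56, 5.63 and 5.65). Its LR2 values (5.04 to 5.36) and LR3 values (5.27 and 5.25) did not exceed it. FN1 was thus tested only because the parental arrays are high, so its fits and its part in the counts are a description. Leaving out 1 array ended the LR3 calls of S100A4 (any of 7 arrays, LR2 ceritinib being the exception, adjusted p up to 0.175), CD44 (LR3 ceritinib, 0.0532), TPM1 (parental or LR3 untreated, up to 0.122) and FN1 (any of 6 arrays, LR2 untreated and ceritinib being the exceptions, up to 0.301), and the LR2 call of FN1 (parental or LR2 crizotinib, or LR2 untreated, up to 0.0655).

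Desmosomes are junctions in which relatives of the cadherins are anchored to keratin. Of 5 desmosome genes tested, 3 were lower and none higher in each resistant line (9.68% of all tested genes were lower in LR2 and 12.1% in LR3), with a median of -0.58 in LR2 and -0.52 in LR3. DSP (desmoplakin) read 9.80, 10.91 and 10.78 in parental cells, 8.50, 9.79 and 9.09 in LR2 (untreated, crizotinib, ceritinib) and 9.49 and 9.51 in LR3 (untreated, ceritinib). It fell by 1.37 ± 0.17 in LR2 and by 0.73 ± 0.19 in LR3 (adjusted p = 0.00136 and 0.0332). The desmosomal cadherins DSC2 (-0.81 ± 0.10 and -0.58 ± 0.11) and DSG2 (-0.58 ± 0.07 and -0.52 ± 0.08) were called in both lines. JUP (plakoglobin) is not among the 5, being counted with the catenins. It was called higher in LR3 (0.51 ± 0.15), with the limits given there, and not called in LR2. In LR3 the call of DSP was lost when any of 6 arrays was left out (untreated parental and LR3 cells being the exceptions, adjusted p up to 0.286), and its estimate ran from -1.11 without untreated LR3 cells to -0.44 without parental ceritinib and -0.34 without LR3 ceritinib. That of DSC2 was lost without LR3 ceritinib (0.108).

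Among 5 other cadherins tested, 1 was called in each line, near the share of all tested genes (22.5% in LR2 and 21.6% in LR3). The 1 called, CDH12 (a cadherin best known from brain), was lower in both lines (-0.77 ± 0.13 in LR2 and -1.64 ± 0.15 in LR3, adjusted p = 0.00526 and 0.000555). It read 6.35, 7.15 and 7.12 in parental, 5.50, 6.72 and 6.09 in LR2 and 4.88 and 5.14 in LR3 cells, so parental and LR2 values overlapped across agents but not within one. Both LR3 values were dim, and taking them at the floor CDH12 was at least 2.85-fold lower in LR3. Of 2 relatives of CADM1 tested, CADM4 was called in LR2 alone (-0.32 ± 0.09, adjusted p = 0.032), beside 22.5% of all tested genes. That call was lost without the untreated or ceritinib array of parental or LR2 cells (adjusted p up to 0.123). CADM4 was dim on all LR2 arrays (5.15 to 5.24) and near the floor in parental cells (5.55, 5.35 and 5.67), so the fit is a description.

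The catenins, which link cadherin contacts to actin, and the nectins were mixed. Of 9 tested, 1 was lower in LR2, and 3 were lower and 1 higher in LR3, so the share called in LR2 was below the 22.5% of all tested genes. In LR3 12.1% of all genes were lower and 9.53% higher. NECTIN3, an adherens-junction immunoglobulin protein, gave fitted differences of -0.66 ± 0.12 in LR2 and -0.67 ± 0.14 in LR3 (adjusted p = 0.00765 and 0.0145). It passed the floor only in parental cells (5.67, 5.62 and 5.38) and was dim on all LR2 and LR3 arrays. Taking the dim arrays at the floor, NECTIN3 was at least 1.15-fold lower in each line. It was tested only because the parental arrays are high, so its fits and its part in the counts are a description. In LR3 its relative NECTIN1 fell by 0.73 ± 0.09 and CTNNB1 (beta-catenin) by 0.43 ± 0.09, while JUP (plakoglobin) rose by 0.51 ± 0.15 (adjusted p = 0.0014, 0.0168 and 0.0477). NECTIN1 was -0.37 with the mean of all probe sets and CTNNB1 -0.66 without _x_at and _s_at probe sets, both called. The LR3 calls were lost without either LR3 array for NECTIN3 (adjusted p up to 0.11) and CTNNB1 (up to 0.121, also without untreated parental cells). That of JUP was lost without either crizotinib array, either LR3 array or untreated parental cells (up to 0.313).

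Of 11 tight junction genes tested, 1 was higher and 1 lower in each line, a smaller share than of all tested genes (22.5% called in LR2 and 21.6% in LR3). CLDN1, a barrier-forming claudin, read 8.91, 8.73 and 8.55 in parental, 7.56, 7.48 and 7.61 in LR2 and 7.15 and 7.07 in LR3 cells, with no overlap between lines. It was lower by -1.18 ± 0.09 in LR2 and -1.64 ± 0.11 in LR3 (adjusted p = 0.000196 and 9.86e-05). CLDN3 rose by 0.70 ± 0.10 in LR3 (adjusted p = 0.0033). MARVELD2 (tricellulin) rose by 0.25 ± 0.07 in LR2 (adjusted p = 0.0351), a call lost when any of the 8 arrays was left out (adjusted p up to 0.129), and it was 0.15, not called, when all its probe sets were averaged.

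Of 24 genes of the epithelial state tested, 5 were higher and none lower in LR2, and 4 were higher and 1 lower in LR3. The share called is close to that of all tested genes, 22.5% and 21.6%. The median difference was 0.11 and 0.07, against 0.02 and 0.01 over all tested genes. In LR2 the epithelial transcription factors ELF5, EHF and OVOL2, a repressor of ZEB1, rose by 1.23 ± 0.22, 0.68 ± 0.16 and 0.58 ± 0.16 (adjusted p = 0.00662, 0.0192 and 0.0327). The polarity gene LLGL2 (0.47 ± 0.08) and the grainyhead factor GRHL1 (0.38 ± 0.10), named to complete the count, also rose. ELF5, EHF and OVOL2 read 4.21, 9.06 and 6.78 in untreated and 5.69, 10.04 and 8.09 in crizotinib-treated parental cells, so on single arrays they also differed between agents within a line. The untreated parental ELF5 value was dim. In LR2 cells ELF5 read 5.68, 7.32 and 6.27 (untreated, crizotinib, ceritinib). In LR3 the membrane protease PRSS8 (prostasin) rose by 0.72 ± 0.14, and SPINT1 (0.48 ± 0.08), KRT19 (0.42 ± 0.09) and LLGL2 (0.34 ± 0.09) completed the 4. The protease ST14 fell by 0.48 ± 0.08.

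Leaving out 1 array ended several of these epithelial calls. In LR2 that was so for ELF5 (either crizotinib array, adjusted p up to 0.0677), EHF (either crizotinib or untreated array, up to 0.13), and OVOL2 and GRHL1 (either crizotinib or untreated array, or LR2 ceritinib, up to 0.143 and 0.14). OVOL2 was 0.33 without untreated parental cells, and LLGL2 in LR3 0.22 without untreated LR3 cells. In LR3 it was so for PRSS8 and ST14 (LR3 ceritinib, 0.107 and 0.0745), SPINT1 (either LR3 array, up to 0.0643), KRT19 (4 of the parental and LR3 arrays, parental crizotinib being the exception, up to 0.107) and LLGL2 (6 arrays, both ceritinib arrays of parental and LR2 cells being the exceptions, up to 0.298). Without an agent term the LR2 calls of ELF5, EHF, OVOL2 and GRHL1 were lost (adjusted p = 0.131, 0.247, 0.29 and 0.172). Those of OVOL2 and GRHL1 were also lost with quantile normalization (0.0557 and 0.0514). Of the 8 splicing factors that act with or against ESRP1, none was called in LR2 and 1 in LR3, beside 22.5% and 21.6% of all tested genes. The 1 called, QKI, which favours mesenchymal splicing, fell by 0.55 ± 0.11 in LR3 (adjusted p = 0.0104). Without LR3 ceritinib the QKI difference was -0.37 and not called. Of the small leucine-rich proteoglycans related to LUM, only BGN (biglycan) was bright enough to test, and it was not called in either line.

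**Figure D4:**
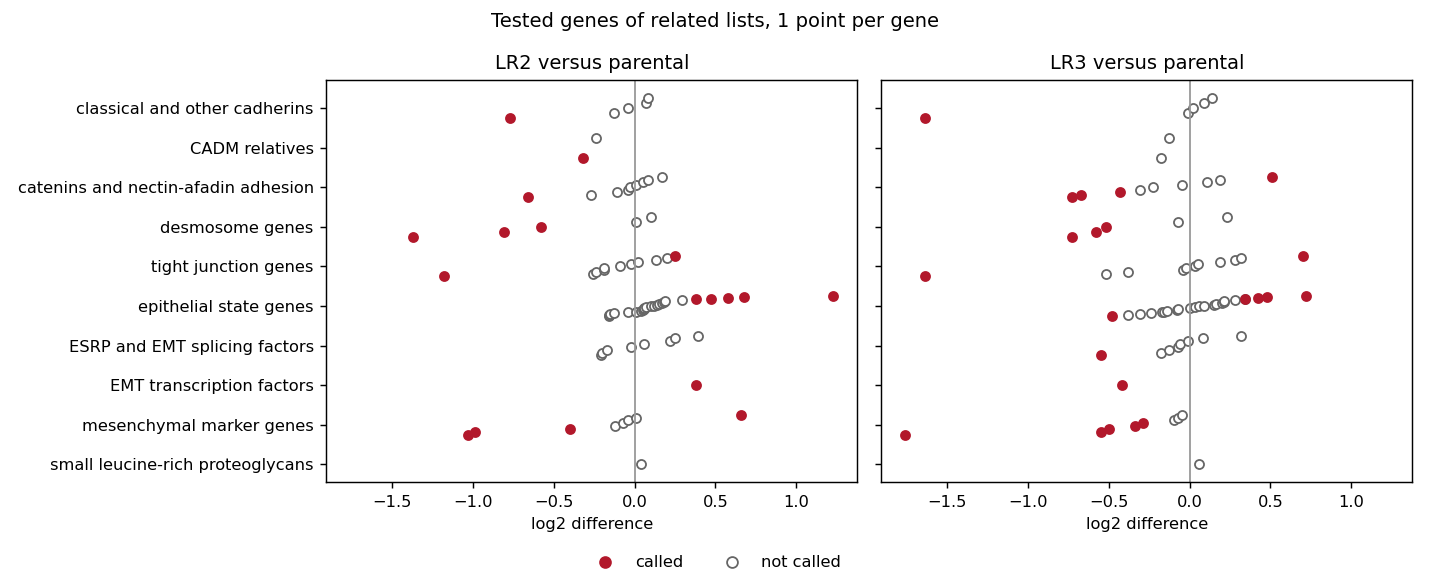
Log2 difference from parental cells of every tested gene in 10 related lists, LR2 on the left and LR3 on the right, 1 point per gene, red where called. Desmosome genes called lie left of 0 in both lines, as do most mesenchymal marker genes called, while the called epithelial state genes lie right of 0 except 1 in LR3.

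After 6 h of inhibitor, ESRP1 was the only member called in any agent comparison. Over the 3 lines, ceritinib against untreated gave no called member and no called gene at all (0.0% of genes, while limma left 2017 genes with an unadjusted p under 0.05). Crizotinib, measured in parental and LR2 cells, gave 1 called member of 7, beside 3.76% of genes. ESRP1, the member called, rose by 0.44 ± 0.09 (1.36-fold, 2 of 2 lines, adjusted p = 0.0444). On single arrays it differed by 0.50 in parental and 0.47 in LR2 cells with crizotinib, 0.29 and 0.27 with ceritinib, and 0.01 with ceritinib in LR3. The ceritinib estimate, 0.19 ± 0.08, was not called (adjusted p = 0.24). The crizotinib call was lost when any of 5 parental and LR2 arrays was left out, parental ceritinib being the exception (adjusted p between 0.0627 and 0.358), and with the probe sets fitted one by one (adjusted p = 0.058).

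LUM differed by -0.53 with crizotinib and -0.77 with ceritinib in parental cells, where it was dim. In LR2 it differed by -0.40 and 0.10, and in LR3 by 0.00 with ceritinib. The crizotinib estimate was -0.41 ± 0.19 (adjusted p = 0.239), and it was called only without the parental ceritinib array (-0.47, adjusted p = 0.0061). CADM1 differed by -0.01 with crizotinib and 0.25 with ceritinib in parental cells, by 0.21 and 0.14 in LR2, and by 0.60 with ceritinib in LR3. Its ceritinib estimate, 0.33 ± 0.11, was not called (adjusted p = 0.156) and was 0.20 without either LR3 array. CDH1, CDH2, CDH3 and EPCAM gave single-array differences between -0.24 and 0.35 and no called estimate for either agent.

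**Figure D5:**
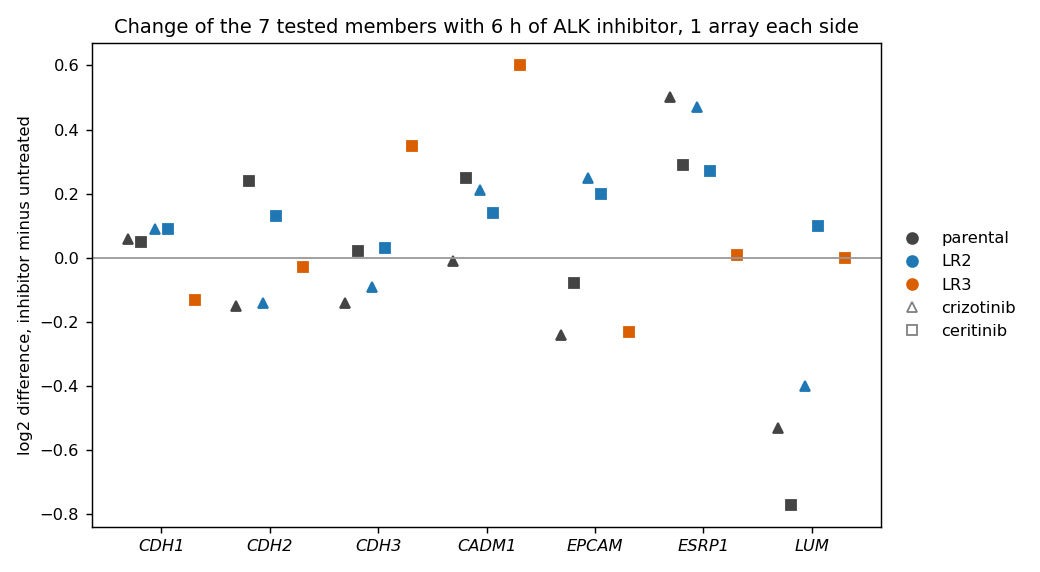
Single-array log2 differences of the 7 tested members, inhibitor minus untreated, within each line, with crizotinib as triangles and ceritinib as squares. ESRP1 lies between 0.27 and 0.50 in parental and LR2 cells and at 0.01 in LR3, and the parental LUM values are at -0.53 and -0.77.

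Whether a line responded differently was asked with both inhibitors counted as 1 condition. No member and no gene was called for the response in parental cells (0.0%, 1849 genes at an unadjusted p under 0.05), in LR2 (0.0%, 1015 genes) or in LR3 (0.0%, 499 genes). Nor was any called for the difference of the LR2 (0.0%, 251 genes) or LR3 response (0.0%, 505 genes) from the parental one. For ESRP1 the LR3 response was lower than the parental one by -0.39 ± 0.22 (95% interval -0.93 to 0.16, adjusted p = 0.91). For CADM1 the LR3 response was higher by 0.48 ± 0.21 (-0.05 to 1.01, adjusted p = 0.91). These intervals are wide, and differences of up to about their bounds could not be detected with this number of arrays.

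Genes whose pattern over the 8 arrays was most like that of a member were found by Pearson correlation, given as a description over 8 arrays that share lines and agents. CDH3 was closest to MUC1 (r = 0.986), a membrane mucin that fell by 0.75 ± 0.07 in LR2 and by 0.84 ± 0.09 in LR3. CADM1 was itself the third gene for CDH3 (r = 0.978). CADM1 was closest to MTHFD1 (0.988), NELL2 (0.987) and SOBP (0.987), CDH1 to CCK (0.991), ESRP1 to PXMP4 (0.987) and LUM to PPHLN1 (0.993) and RIT1 (0.992). EPCAM and CDH2, which differed little between arrays, had their closest partners at 0.953 (PPIL4) and 0.945 (LMTK3).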

How the data were processed

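RNA of 8 samples (parental H3122, H3122-LR2 and H3122-LR3) was hybridised to 1 single-colour expression array each. Per the labels' protocols, an RNeasy Mini Kit yielded total RNA, which a 3' IVT kit turned into biotin-labelled target. Probe set signals were deposited on a log2 scale, computed with RMA per the submitters' processing notes. Its version, and which arrays were normalized together, are not given in the sources used here. RMA summarises probes after quantile normalization, which removes any shift shared by all genes.

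Of 49395 probe sets in the table, 44988 carried 1 gene symbol and were not controls, while 1832 had several symbols and 2473 none. A gene was its probe set with the highest mean over the 8 arrays, and 10527 of 18132 genes (58.1%) exceeded the table median of 5.36 on at least 2 arrays and were tested. R 4.3.3 with limma 3.58.1 fitted line and agent additively over 8 arrays (3 residual and 4.99 prior degrees of freedom). For inhibitor responses within lines the model had 6 cells of line by inhibitor or none (2 residual degrees of freedom). A p-value was adjusted by Benjamini-Hochberg over all genes tested. The number of arrays limits the precision.

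The members and gene lists were chosen with earlier results of these data known. All members were to be named, and of each list up to 4 called genes with the largest line difference, with the transition factors whether called or not. Genes outside that rule (FN1, LLGL2, GRHL1, SPINT1, ST14 and the neighbouring genes) were named after their values were seen. Alternatives changed the normalization, the filter, the probe set per gene, the agent coding, the eBayes options and the arrays in the fit. No sequences are shown, and gene order came from a RefSeq table of assembly GRCh38.p14.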

Additional observations from a re-analysis of the deposited data

Results flagged for a closer look

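EPCAM was singled out because its inhibitor response ran in opposite directions in parental and LR2 cells. EPCAM differed from untreated cells by -0.24 with crizotinib and -0.08 with ceritinib in parental cells, and by 0.25 and 0.20 in LR2. The LR2 response minus the parental one was 0.385 log2 units, with a standard error of 0.16. The test of that difference did not call it (limma, unadjusted p = 0.0571, adjusted p = 0.998). The single untreated array of each line enters both of its differences.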

How the results depend on the processing

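Against parental cells CADM1, CDH3 and ESRP1 kept their LR2 calls under all 19 alternatives run. The LUM fit in LR2 also passed the threshold in the 15 alternatives that tested it. All its parental and LR2 values were dim and it was tested only through the LR3 arrays, so this is not read as a rise. LUM dropped out of the test with the filter on the mean, without _x_at and _s_at probe sets, and without either LR3 array, and the lower member counts there partly reflect that. With only the 4 agent-matched arrays (1 residual degree of freedom) LR3 against parental cells gave 0 called members and 0 genes (by limma, 3092 had an unadjusted p under 0.05). LR3 against LR2 then gave 1 member, LUM, and 544 genes. That comparison also gave 1 called member, ESRP1, with the filter on the mean and without probe sets of suffix _x_at or _s_at. Without an agent term LR2 had 1478 called genes. Leaving out 1 array gave 1138 to 2113 called genes in LR2, 619 to 2323 in LR3 (2 to 4 members), 699 to 2635 in LR3 against LR2 (1 to 3 members), 0 to 3 for ceritinib and 0 to 1528 for crizotinib (0 to 2 members). Ceritinib gave 22 called genes without _x_at and _s_at probe sets and 61 with an intensity trend. Crizotinib gave 258 with quantile normalization, 151 with no filter and 797 with an intensity trend, and 0 called members with centred arrays or no filter. CDH1 in LR2 was also not called with the mean of its probe sets (-0.22, adjusted p = 0.1). JUP in LR3 lost its call under 11 of 19 alternatives and MARVELD2 in LR2 under 11 of 18.

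Small uncalled estimates changed sign. With 1 array left out the ranges were -0.16 to 0.10 (EPCAM, LR2), -0.19 to 0.10 (EPCAM, LR3), -0.12 to 0.15 (ESRP1, LR3), -0.13 to 0.09 (CDH2) and -0.22 to 0.10 (CDH3) for LR3 against LR2, -0.18 to 0.06 (EPCAM) and -0.39 to 0.04 (LUM) for ceritinib, and -0.22 to 0.13 (EPCAM) for crizotinib. ESRP1 in LR3 was -0.02 with quantile normalization, -0.05 with inhibitors as 1 condition and -0.10 with no agent term. CDH2 in LR3 against LR2 was 0.03 with quantile normalization, 0.04 centred, and 0.06 with inhibitors as 1 condition or no agent term. Without LR3 arrays EPCAM was 0.06 for ceritinib and 0.01 for crizotinib. With the mean of probe sets CDH3 was 0.04 for crizotinib, and the response differences from parental cells were -0.06 for CDH3 in LR2 and -0.11 for CADM1 in LR3. With quantile normalization the inhibitor response of LR2 minus that of parental cells was -0.03 for CDH1 and -0.03 for CDH3. For CDH3 this response difference was -0.01 when centred. The cause of these changes was not tested. Agent served as the block that matches arrays across lines in the additive fits, and the labels give no replicate numbers.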

Other observations

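Around ESRP1 and CADM1, genes next to the member on the chromosome were called in the member's direction in 1 resistant line. The 10 nearest tested protein-coding genes on each side were taken in RefSeq order, a choice made after the values were seen, and the counts carry no test. Beside ESRP1, 15 of 20 neighbours were called higher and none lower in LR2 (12.8% of all tested genes were higher), with a median difference of 0.44 against 0.02 over all tested genes. They include RAD54B, a DNA repair helicase (0.44 ± 0.09), INTS8, an Integrator subunit (0.42 ± 0.07), and CCNE2, cyclin E2 (0.71 ± 0.10). In LR3, where ESRP1 was not called, 1 of the 20 was higher and 3 lower, with a median of 0.00. Of all tested genes 9.53% were higher and 12.1% lower there. Leaving out 1 array left 10 to 15 of the LR2 calls. RAD54B was then not called without either crizotinib array or untreated LR2 cells (adjusted p up to 0.0653).

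Beside CADM1, 9 of 20 neighbours were called lower and none higher in LR3, where 12.1% of all tested genes were lower (median -0.34 against 0.01), among them BUD13 (-0.51 ± 0.09) and ZPR1 (-0.31 ± 0.08), the first tested genes on 1 side. In LR2, where CADM1 was nearly as low, 3 of the 20 were higher and 1 lower (median 0.05). Of all tested genes 12.8% were higher and 9.68% lower there. The LR3 count was 3 without the LR3 ceritinib array, 6 to 12 without any other, and 0 with only the agent-matched arrays. Without LR3 ceritinib BUD13 was not called (adjusted p = 0.0886), and ZPR1 was lost without any of 6 arrays (up to 0.181).

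CDH3 and CDH1 are adjacent genes, and both were lower in both lines. Of the 20 neighbours of CDH1, 3 were higher in LR2 and 4 in LR3 (12.8% and 9.53% of all tested genes were), and the only one called lower in either line was CDH3. Around LUM, 3 of 20 neighbours were lower in LR2 and 2 in LR3, near the 9.68% and 12.1% of all tested genes, and none was higher. The adjacent proteoglycan genes KERA, EPYC and DCN stayed dim on all arrays, at 2.63, 3.85 and 3.36 or less.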
